A study of Mus musculus with 58 samples.

Results

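The genes described here encode the receptors for glutamate and GABA, the main excitatory and inhibitory transmitters of the cortex. They were chosen by symbol alone, as every gene named *Gria*, *Grid*, *Grik*, *Grin* or *Grm* with its number, *Gabr* or *Gabbr* in the tables of both brain regions. This gave 48 of the 31246 genes listed. One of the 48, *Grid2ip*, encodes a postsynaptic scaffold protein and is not a receptor subunit. The data came from male *APOE* targeted replacement mice of 14 to 15 months, labelled as C57Bl/6, and from 2 of their brain regions, the primary visual cortex (PVC) and the entorhinal cortex (EC). Each region had 10 *APOE3/3* and 19 *APOE3/4* mice, 58 libraries in all, and the same 29 mouse numbers appear in both regions. All of these mice, controls included, carry human *APOE* in place of the mouse gene, under the mouse promoter, and serve as a model of *APOE* genotype without plaques or tangles. The EC was studied as a region vulnerable to Alzheimer's disease and the PVC as one that is relatively spared.

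Ionotropic glutamate receptors are assembled from 4 subunits that form a cation channel. AMPA receptors (*Gria* genes) carry fast excitation, NMDA receptors (*Grin* genes) admit calcium and open only when the membrane is also depolarised, and kainate receptors (*Grik* genes) act on both sides of the synapse. Metabotropic glutamate receptors (*Grm* genes) and GABA-B receptors (*Gabbr* genes) signal through G proteins. GABA-A receptors are chloride channels of 5 subunits, in the cortex mostly alpha, beta and gamma, and the alpha and delta subunits present set where the receptor sits and how it answers to GABA and to drugs such as benzodiazepines.

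The values are the authors' means, per gene and region, of read counts divided by size factors, called mean normalized counts below. Each mean is taken over all 29 libraries of a region with the genotypes together, so it holds no difference between *APOE3/4* and *APOE3/3*, and no value of a single mouse was used. The spread between mice is therefore not known, no test between regions was possible, and every difference below is a description without an error. Depth per library was not analysed here. The regions were normalized separately, and the means summed to 49385488 in the EC against 27058393 in the PVC. The EC over PVC ratio of each gene was therefore divided by the median ratio of the genes kept, 1.87, so that a fold of 1 means a gene that follows the median gene. Genes were kept when the mean of both regions on a common scale was at least 10, which left 16862 genes, 43 of the 48 receptor genes among them.

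The region labels were checked against markers. The 3 genes taken as markers of layer 2 of the EC were *Reln*, *Wfs1* and *Calb1*. All were higher in the EC, by 3.32-, 2.03- and 1.58-fold. *Rorb*, a marker of layer 4 of sensory cortex, was 2.35-fold higher in the PVC, while *Scnn1a* was 1.29-fold higher there. The neuronal genes *Snap25*, *Syt1* and *Stmn2* lay within 1.5-fold, whereas *Rbfox3* is not listed under that symbol. *Snap25* and *Syt1* were 1.47- and 1.19-fold higher in the PVC and *Stmn2* was 1.27-fold higher in the EC. The summed level of these neuronal genes was 0.450% in the EC against 0.571% in the PVC. Other cells and regions differed as well. All 4 oligodendrocyte markers were at least 2.60-fold higher in the PVC, with a summed level of 0.0787% of all mean normalized counts in the EC against 0.202% in the PVC, and the parvalbumin gene *Pvalb* was 3.26-fold higher in the PVC. Of 6 hippocampal markers, *Fibcd1*, *C1ql2* and *Dsp* were 4.35-, 3.44- and 1.97-fold higher in the EC and *Bok* was 1.82-fold higher in the PVC, with a summed level of 0.00921% in the EC against 0.00538% in the PVC. *Pvalb* and *Vip* (1.75-fold higher in the PVC) were the 2 of 6 interneuron genes past 1.5-fold, while *Slc17a7*, *Camk2a* and *Neurod2* of excitatory neurons lay within 1.5-fold. *Drd1a* (1.83-fold higher in the EC) was 1 of 6 striatal markers past 1.5-fold, *Tcf7l2* (1.91-fold higher in the PVC) 1 of 3 thalamic ones and *Ttr* (4.55-fold higher in the PVC) 1 of 4 of the choroid plexus. All 4 microglial and 3 endothelial markers lay within 1.5-fold. None of these markers was at 0 in either region. In tissue, fewer cells of a type and less RNA per cell cannot be told apart. The part of these cell markers in the receptor values was not tested. Nor was the part of hippocampal tissue in the values of *Reln*, *Wfs1* and *Calb1*.

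Per kilobase of exon, which allows genes to be compared within a region, *Gria2* had the highest level of the 48 genes in both regions, at 5855 mean normalized counts per kilobase in the EC against 3226 in the PVC. *Gria2* encodes the subunit that makes AMPA receptors largely impermeable to calcium. In the EC it was followed by *Gria1* (4300.0), *Gabbr1* (4186), *Gabbr2* (3957) and *Grik5* (3427). In the PVC, *Gabbr1* (2455) had rank 2, *Gabbr2* (2367) rank 4 and *Gria1* (1657) rank 5. The order depends on the length taken. By the longest transcript in place of all exons, *Gabbr1* came before *Gria2* in both regions (6216 against 5856 in the EC). The EC to PVC ratio of a gene does not depend on its length. Neighbours in these orders cannot be separated, as their spread is not known.

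**Figure D1:**
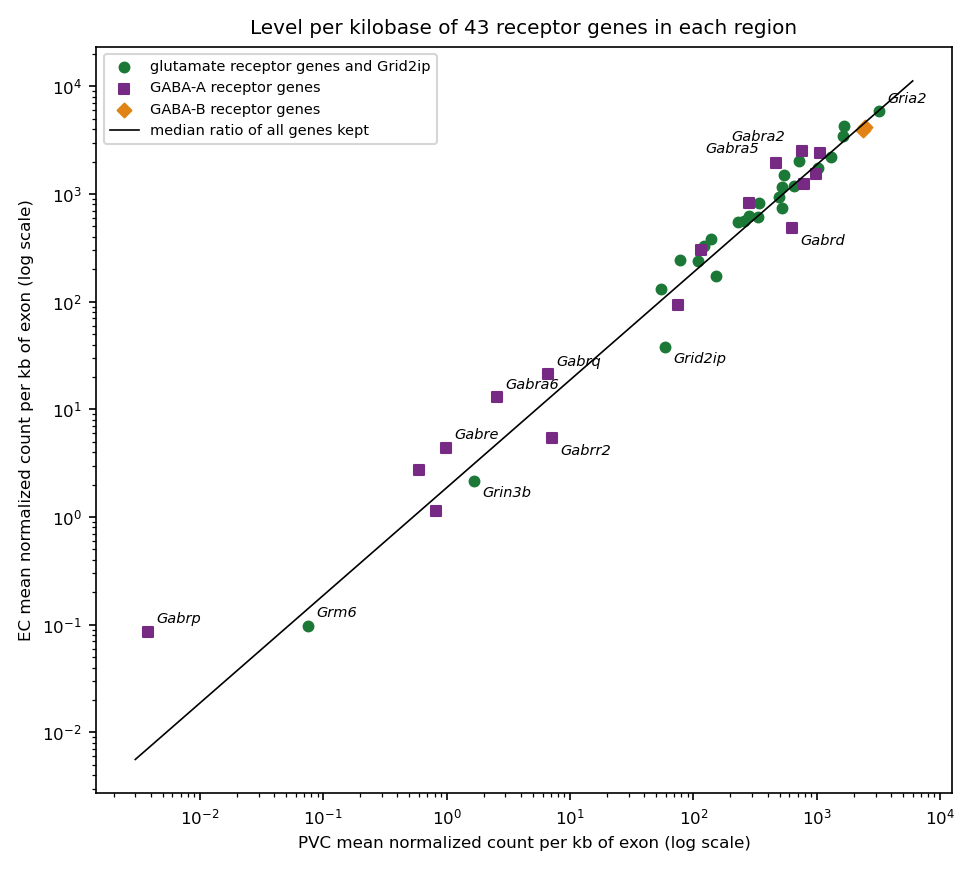
Mean normalized count per kilobase of exon of 43 of the genes in the PVC (x axis) and EC (y axis), both on log scales, 1 point per gene, with the line of the median ratio of all genes kept. *Gabra2* and *Gabra5* lie above the line and *Gabrd* and *Grid2ip* below it, and *Gria2* is highest in both regions.

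At the other end, 5 genes fell below the minimum and are given no ratio. *Gabrp* had a mean normalized count of 0.291 in the EC against 0.0128 in the PVC, and *Grm6*, the receptor of retinal ON bipolar cells, had 0.532 and 0.407. *Gabrr1* and *Gabrr3*, subunits best known from the retina, and the NMDA receptor gene *Grin3b* ran from 1.36 to 7.20. *Gabra6*, known from cerebellar granule cells, had 32.5 in the EC against 6.36 in the PVC, *Gabre* 20.9 and 4.68, and *Gabrr2* 11.4 and 15.1. These genes passed only narrowly, and their folds rest on few reads. Of the cerebellar markers, *Cbln3* was 1.69-fold higher in the EC, *Pcp2* 1.26-fold, and *Barhl1* fell below the minimum, with a summed level of 0.000353% in the EC against 0.000229% in the PVC, and their part in the value of *Gabra6* was not tested.

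Of the 43 genes kept, 13 differed between the regions by more than 1.5-fold, or 30.2%. Among all genes kept the share was 14.1%, and among genes with a minimum of 100 it was 9.98%, against 8 of 39 receptor genes there. By direction, 8 receptor genes were past 1.5-fold on the EC side and 5 on the PVC side, against 8.52% and 5.61% of all genes. The median log2 ratio of the 43 genes was 0.24 against 0.00 for all genes, and 26 were on the EC side and 17 on the PVC side. For comparison, the middle 50 percent of all genes lay between −0.15 and 0.18. The genes on the EC side past 1.5-fold were *Gabra6*, *Gabre*, *Gabra5*, *Gabra2*, *Gabrq*, *Grin3a*, *Gabrb1* and *Grm5*, and those on the PVC side were *Grid2ip*, *Gabrr2*, *Gabrd*, *Grik4* and *Gabrg3*. Among these, *Gabra6*, *Gabre* and *Gabrr2* passed the minimum only narrowly. *Gabre* (20.9 in the EC against 4.68 in the PVC) passed it through its EC level, so its place on the EC side depends partly on the filter. Near the limit were *Grm5* (log2 ratio 0.62) and *Gabrg3* (−0.60) among those past it, and *Grm4* (0.56) and *Grin2b* (0.55) among those short of it. With both tables scaled to the same total, *Gabrg3* (−0.57) lay inside 1.5-fold and *Grm4* (0.59) past it.

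**Figure D2:**
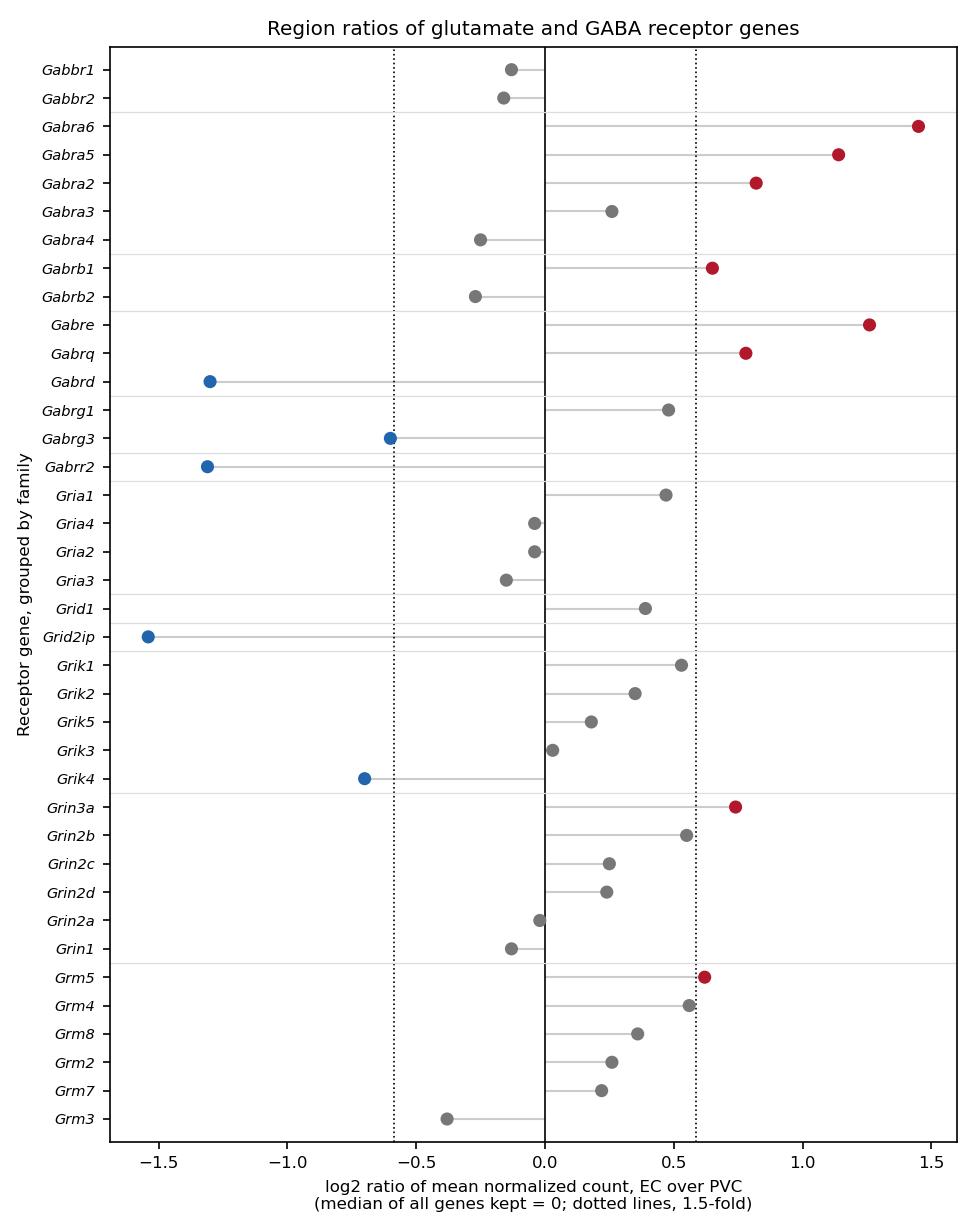
Log2 ratio of the mean normalized count, EC over PVC, of 38 of the genes kept, grouped by receptor family, with the median of all genes at 0 and dotted lines at 1.5-fold. The largest ratios are those of *Gabra6* (1.45) and *Grid2ip* (−1.54), whereas the AMPA genes lie between −0.15 and 0.47.

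Of the GABA-A alpha subunits, 3 of 6 were past 1.5-fold, all higher in the EC, where 8.52% of all genes kept were. Of the 3, *Gabra6* was low, with 32.5 in the EC against 6.36 in the PVC, and its fold rests on few reads. *Gabra5*, whose product is known from extrasynaptic receptors of the hippocampus, had a mean normalized count of 5124 in the EC against 1244 in the PVC, and was 2.20-fold higher in the EC after division by the median ratio. *Gabra2*, whose product is found at synapses of the axon initial segment, had 6003 and 1825, or 1.76-fold more in the EC. *Gabra3* (9399.9 and 4207, log2 ratio 0.26) and *Gabra4* (5098 and 3243, −0.25) lay nearer to the median gene. Ratios of genes within a region do not depend on how the regions are scaled. Per kilobase, the level of *Gabra5* was 1.56 times that of *Gabra4* in the EC against 0.597 times in the PVC, and that of *Gabra2* 2.03 and 0.971 times. Set against *Gabra3*, the level of *Gabra2* was 1.05 times in the EC against 0.712 times in the PVC, and that of *Gabra5* 0.806 and 0.437 times. *Gabra5* thus stood above *Gabra4* in the EC and below it in the PVC.

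*Gabrd*, the delta subunit of extrasynaptic receptors that answer to low GABA, was 1 of 3 of these genes with more counts in the PVC before any scaling, with 1822 against 1386, and was 2.46-fold higher in the PVC. *Gabra4*, with whose product it assembles in the forebrain, was 1.19-fold higher in the PVC. *Gabra4* stood at 2.56 times the level of *Gabrd* per kilobase in the EC against 1.24 times in the PVC. The ratio of *Gabra5* to *Gabrd*, both parts of extrasynaptic receptors, was 4.01 in the EC against 0.740 in the PVC. *Gabrq*, the theta subunit, was low, with 114 in the EC against 35.6 in the PVC, and 1.72-fold higher in the EC.

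Among the beta and gamma subunits, *Gabrb1* was 1.57-fold higher in the EC (2551 and 867), while *Gabrb2* was 1.21-fold higher in the PVC (15295 and 9867). Per kilobase, *Gabrb2* stood at 1.87 times the level of *Gabrb1* in the EC against 3.54 times in the PVC. *Gabrg1* was 1.39-fold higher in the EC (1436 and 552), and *Gabrg3* 1.52-fold higher in the PVC (1112 and 903).

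Several GABA-A genes are neighbours in the genome, and neighbours did not always lie on the same side. On chromosome 5 of NCBIM37, *Gabrg1* (71142286 to 71233856), *Gabra2* (71352296 to 71487088) and *Gabrb1* (72091171 to 72529628) were on the EC side (0.48, 0.82 and 0.65), while *Gabra4* (71960973 to 72049547) was not. On chromosome 7, *Gabra5* (64663060 to 64765379) was on the EC side (1.14) and *Gabrg3* (63971835 to 64642558) on the PVC side (−0.60). On chromosome 11, *Gabrb2* (42233259 to 42446092) was on the PVC side (−0.27) and the low *Gabra6* (42119939 to 42134574) on the EC side. On the X chromosome, *Gabra3*, *Gabrq* and *Gabre* were all on the EC side, where *Gabre* passed the minimum only through its EC level.

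**Figure D3:**
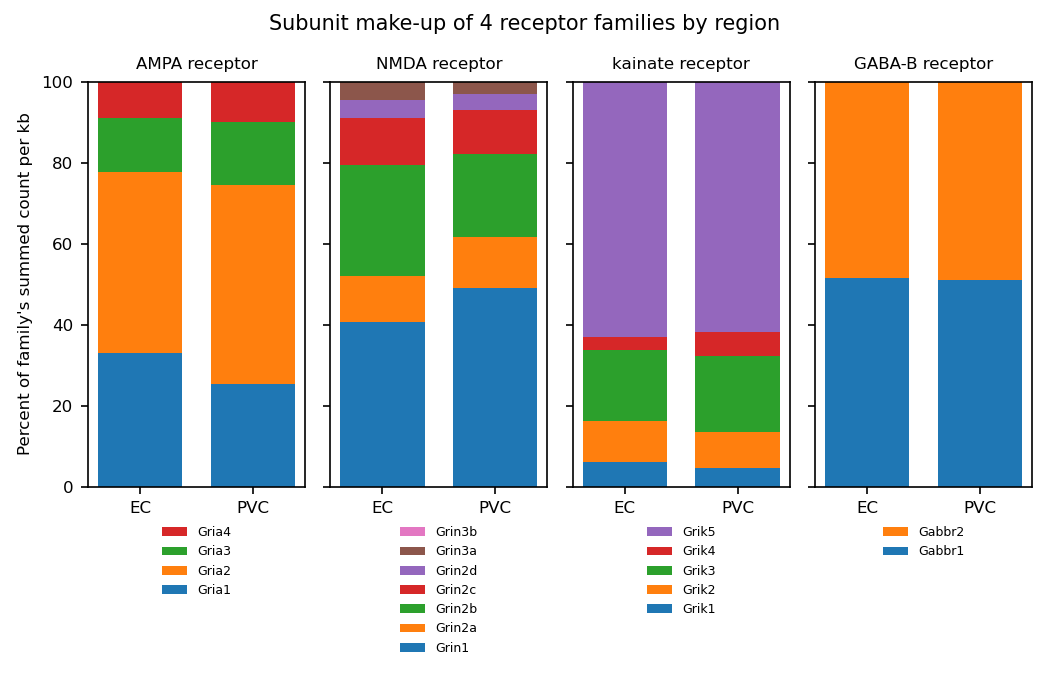
Share of each gene in the summed mean normalized count per kilobase of its receptor family, in percent, in the EC and the PVC, 1 panel for each of 4 families, with no error bars as no spread is known. The share of *Grin1* is 40.7% in the EC and 49.0% in the PVC, while the kainate receptor panel differs little, with *Grik5* at 63.2% and 61.9%.

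The start regions of 3 of these genes are shown because *Gabra5* and *Gabra2* had the largest EC ratios of the well-expressed genes and *Gabrg3*, beside *Gabra5*, lay on the PVC side. They come from RefSeq on GRCm38.p6, 250 bases before and 50 after the gene start, on the minus strand and written 5′ to 3′, with matches to GGGCGG on either strand in capitals.
*Gabra2*, chr5:71095800-71096099: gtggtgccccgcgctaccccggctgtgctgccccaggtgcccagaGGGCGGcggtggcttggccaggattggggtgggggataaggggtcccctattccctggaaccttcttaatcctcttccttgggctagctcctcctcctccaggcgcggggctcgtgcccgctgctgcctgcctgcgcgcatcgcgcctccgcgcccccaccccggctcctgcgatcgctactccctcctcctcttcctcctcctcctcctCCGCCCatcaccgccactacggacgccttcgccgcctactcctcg
*Gabra5*, chr7:57510010-57510309: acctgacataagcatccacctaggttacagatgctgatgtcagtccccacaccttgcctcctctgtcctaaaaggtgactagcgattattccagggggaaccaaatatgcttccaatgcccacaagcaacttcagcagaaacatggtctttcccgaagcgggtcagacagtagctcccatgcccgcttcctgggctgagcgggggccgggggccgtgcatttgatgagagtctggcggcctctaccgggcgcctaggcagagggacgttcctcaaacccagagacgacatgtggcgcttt
*Gabrg3*, chr7:57387166-57387465: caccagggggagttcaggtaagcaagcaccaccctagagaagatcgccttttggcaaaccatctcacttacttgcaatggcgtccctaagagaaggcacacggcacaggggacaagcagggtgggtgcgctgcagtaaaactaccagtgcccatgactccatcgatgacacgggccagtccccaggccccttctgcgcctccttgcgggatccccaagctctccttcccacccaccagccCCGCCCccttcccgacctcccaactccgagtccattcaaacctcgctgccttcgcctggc

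The GC box GGGCGG matched 2 times in the window of *Gabra2*, 1 time in that of *Gabrg3* and 0 times in that of *Gabra5*. The windows were 70.0%, 61.0% and 56.7% G and C. A window was found for 33 of the 48 genes, 41 windows in all. Of these, 51.2% held the GC box, 9.76% TATAAA and 0 the CRE sequence TGACGTCA, against 35.7%, 13.6% and 1.79% of all 32851 windows. The motifs were searched on both strands, and none of the 3 contains another. A match is a description of the letters only. *Gabrd* has no window in the table used.

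None of the AMPA receptor genes was past 1.5-fold, and *Gria1* lay furthest from the median gene. *Gria2* (40727 and 22438) and *Gria4* (7412 and 4089.7) followed the median gene, both with a log2 ratio of −0.04, and *Gria3* (17079 and 10131) was 1.11-fold higher in the PVC. *Gria1*, whose product is known for its trafficking in synaptic plasticity, was 1.39-fold higher in the EC (25985 and 10011). *Gria2* stood at 1.36 times the level of *Gria1* per kilobase in the EC against 1.95 times in the PVC.

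Among NMDA receptor genes, the obligatory subunit *Grin1* was at 21478 and 12596, with a log2 ratio of −0.13. *Grin2b*, the GluN2 subunit that is expressed early in life, was 1.46-fold higher in the EC (12195 and 4462), and *Grin2a*, which gains weight with maturation, followed the median gene (3273 and 1770.4). Their ratio per kilobase was 2.41 in the EC against 1.63 in the PVC. *Grin3a*, whose product lowers calcium entry, was 1.67-fold higher in the EC (3858 and 1237). Per kilobase, *Grin1* stood at 9.05 times the level of *Grin3a* in the EC against 16.6 times in the PVC. *Grin2c* (3173 and 1433) and *Grin2d* (1405 and 637) had log2 ratios of 0.25 and 0.24. Of the exon bases of *Grin1*, 13.5% are shared with another annotated gene. Such overlaps were found for 13 of the 48 genes, among them *Grin3b* (32.1%), *Gabra5* (4.45%) and *Grin2b* (3.33%). Reads from them cannot be told apart by this kit, which does not keep the strand.

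Of the kainate receptor genes, *Grik4*, a high-affinity subunit known from hippocampal CA3, was 1.62-fold higher in the PVC (1034 in the EC against 897 in the PVC). The other 4 lay on the EC side, from 0.03 for *Grik3* (8501 and 4448) to 0.53 for *Grik1* (1098 and 406), with *Grik2* (4515 and 1892) at 0.35. *Grik5*, the partner subunit with the highest level of the family, was at 13147 and 6223. Its level per kilobase was 19.6 times that of *Grik4* in the EC against 10.7 times in the PVC. The delta receptor *Grid1* was 1.31-fold higher in the EC (5067 and 2067). *Grid2ip* had more counts in the PVC before scaling, 284 against 182, and was 2.92-fold higher there.

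The metabotropic glutamate receptor genes were mostly on the EC side, 6 of the 7 kept. *Grm5*, the main Gq-coupled metabotropic glutamate receptor of the forebrain, was 1.53-fold higher in the EC (16477 and 5753). *Grm3*, which is abundant in astrocytes, was the exception, 1.30-fold higher in the PVC (2666 and 1862), while *Grm2*, a presynaptic receptor of the same subgroup, was 1.19-fold higher in the EC (3871 and 1736). The astrocyte markers *Gfap* and *Aqp4* were 1.52- and 1.45-fold higher in the EC, and *Aldh1l1* was 1.28-fold higher in the PVC. Of the presynaptic receptors that inhibit release, *Grm4* (2033 and 739), *Grm8* (1028 and 429) and *Grm7* (3319.8 and 1528) had log2 ratios of 0.56, 0.36 and 0.22. The GABA-B genes, whose products work as a pair, lay close together, *Gabbr1* (32623 and 19131) at −0.13 and *Gabbr2* (23142 and 13842) at −0.16. Their ratio per kilobase of exon was 1.06 in the EC against 1.04 in the PVC, but this near-equal level depends on the length taken. By the longest transcript, *Gabbr1* stood at 6216 against 4034 for *Gabbr2* in the EC, and at 3645 against 2413 in the PVC.

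Proteins that assemble with these receptors, anchor them or handle their transmitters were described from a list of 58 genes, of which *Kctd12* is not listed. Of the 57 kept, 8 were past 1.5-fold on the EC side and 6 on the PVC side, 24.6% in all, where 8.52%, 5.61% and 14.1% of all genes were. Their median log2 ratio was −0.01. Those on the EC side include 4 AMPA receptor auxiliary genes, *Cacng5* (2.40-fold), *Shisa9* (2.03-fold), *Cnih3* (1.78-fold) and *Shisa6* (1.72-fold), while *Cacng2*, which encodes stargazin, was 1.56-fold higher in the PVC. The other AMPA receptor auxiliary genes of the list lay within 1.5-fold, with log2 ratios from −0.35 (*Cacng7*) to 0.44 (*Cnih2*). The cerebellins, secreted proteins of which some link neurexins to delta receptors, differed most. *Cbln1* (554 in the EC against 79.4 in the PVC) and *Cbln4* (2263 and 425) were 3.74- and 2.85-fold higher in the EC, and *Cbln2* (387 and 789) was 3.81-fold higher in the PVC. *Homer1*, whose product couples group I metabotropic receptors to intracellular calcium stores and has an activity-induced short form, and *Grip2*, which binds AMPA receptors, were 1.92- and 1.87-fold higher in the PVC. Of the neuronal pentraxin genes, whose products gather AMPA receptors, *Nptxr* (1349 and 345) was 2.09-fold higher in the EC and *Nptx2* (2039.8 and 1770.3), which is induced by activity, 1.62-fold higher in the PVC. *Slc17a6*, a vesicular glutamate transporter known from the thalamus, was 1.61-fold higher in the PVC, and *Kctd12b*, related to auxiliary genes of the GABA-B receptor, was just past the limit on the EC side with a log2 ratio of 0.59. Of other postsynaptic scaffold genes, *Dlg4* was at −0.10, *Shank3* at −0.12 and the inhibitory scaffold gene *Gphn* at −0.17, while *Grip1* (0.56) and *Homer2* (0.42) lay on the EC side within 1.5-fold. The GABA-synthesizing enzymes *Gad1* and *Gad2* had log2 ratios of −0.33 and −0.07, and the vesicular transporters *Slc17a7* and *Slc32a1* of 0.13 and −0.40.

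**Figure D4:**
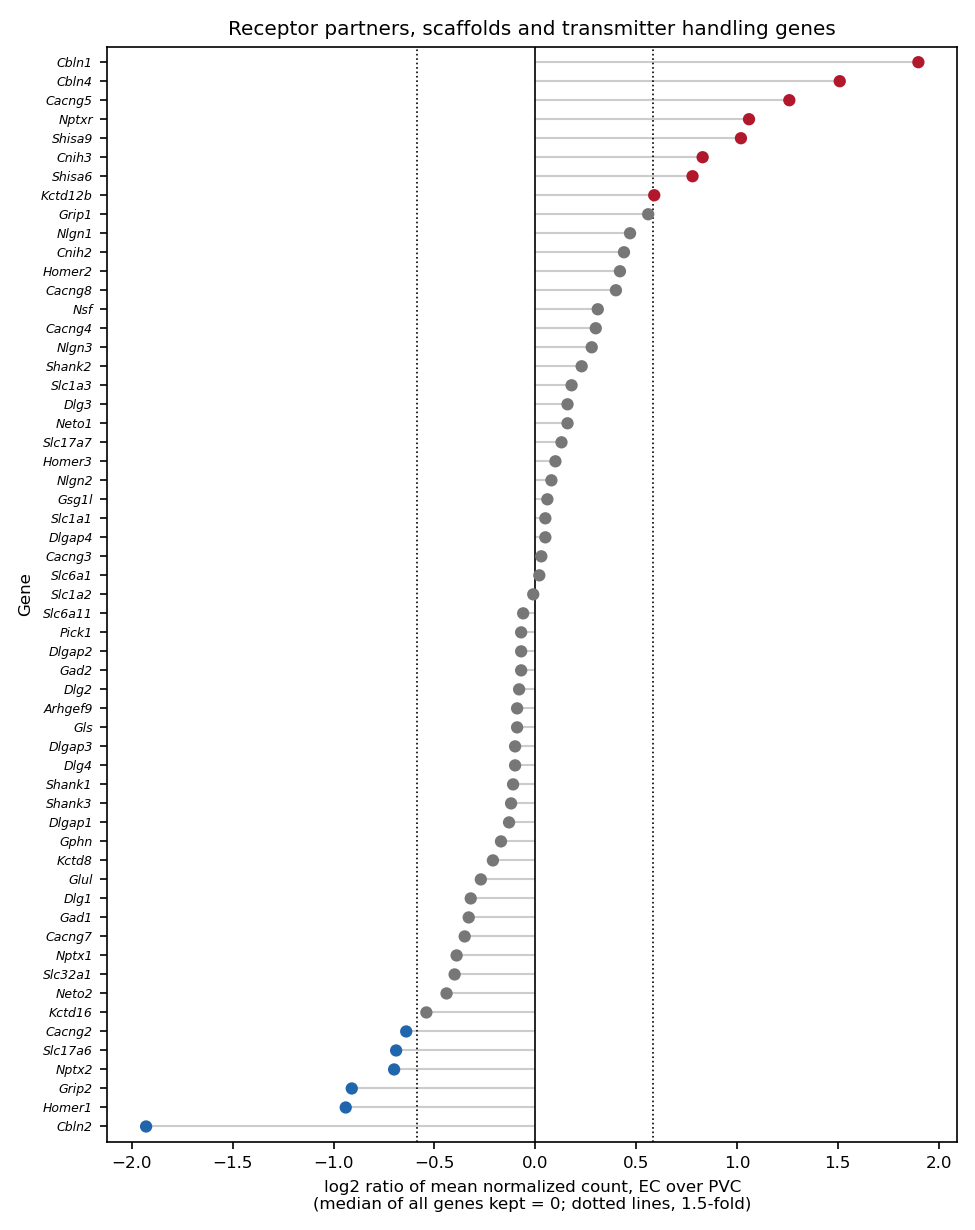
Log2 ratio of the mean normalized count, EC over PVC, of 57 genes for receptor partners, scaffolds and transmitter handling, with the median of all genes at 0 and dotted lines at 1.5-fold. *Cbln1* (1.90) and *Cbln2* (−1.93) lie at the ends, and 43 genes lie within 1.5-fold.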

How the data were processed

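RNA from the EC and PVC of 29 mice was sequenced as poly(A)+ libraries, 58 in all, of which 2 from the EC and 5 from the PVC were run several times per the labels. The authors aligned the reads to mm9 with TopHat2 2.0.6 and Bowtie2 2.0.2.0 and counted them per gene with HT-SEQ on NCBIM37. The deposited signal is the authors' mean over a region of counts divided by DESeq2 size factors. The tables also hold the authors' own genotype comparison (log2 fold change, standard error, Wald statistic and *p*-values), which was not used. The region of each table is known from its name. As only pooled means were used, no model was fitted and no precision per value can be given.

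With Python 3.11.15, numpy 2.4.6, pandas 2.3.3 and matplotlib 3.10.9, EC over PVC ratios were centred on the median gene, with a minimum of 10 and a limit of 1.5-fold. The calculation of the ratio was checked on simulated counts with known ratios. This checks the calculation only and gives no error for the folds reported here. Exon lengths came from GENCODE on NCBIM37, matching all 48 genes and 94.9% of the 16862 kept. Over the latter, ratio and length had a Spearman rho of 0.016, a description. By rule, every member is accounted for, those kept are given with values, the text turns on those past 1.5-fold and the leading subunit of each family, and other genes come from the partner and marker lists. A few genes of these lists and the family shares that include them are not reported here. The members and lists were chosen with earlier results of these data known. Alternatives were scaling to equal totals, minimums of 0 and 100, removal of length bins, a limit of 2-fold and other lengths.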

Additional observations from a re-analysis of the deposited data

How the results depend on the processing

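No paired analysis was possible because the tables hold 1 mean per gene and region and no values of single mice, and for the same reason no mouse could be left out. Scaling both tables to the same total, which shifts all ratios by 0.03 (log2), no minimum count, and removal of length bins gave 13, 16 and 13 receptor genes past 1.5-fold, against 13. A minimum of 100 gave 8, as fewer genes remained and *Gabrg3* fell inside the limit, and a limit of 2-fold gave 6. For the 57 partner genes the limit of 2-fold gave 6 against 14. The median of the receptor genes ran from 0.21 to 0.27 over the alternatives, and no ratio of a gene kept moved by 0.1 or more. *Gabrg3* fell inside 1.5-fold with equal totals (−0.57) and with a minimum of 100 (−0.58), and *Grm4* passed it with equal totals (0.59). The leading subunit was the same in both regions for 10 of 10 families, and for 9 without division by length. Shares within families moved by 5 percentage points or more in 19 cases with the longest transcript and 34 without length.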
